A study of Homo sapiens with 8 samples.

Results

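The replication-dependent cluster histone genes were taken as all protein-coding genes whose symbol places them in the histone clusters HIST1 to HIST4, at 1 TPM (a gene's share of all transcripts, scaled to the same total in every library) or more in at least 2 of 8 libraries. This level rule kept 38 of 71 cluster histone genes, among 16060 genes of the whole series that met the same level (56269 listed). They were measured by RNA sequencing in 2 human cholangiocarcinoma (CCA) lines, SNU1079 and SSP25, both labelled wildtype. The study's own sequencing found IDH1 and ARID1A mutations in SNU1079, which this label does not show. Each line was treated for 48 h in 4 ways, with BETp + mTORi, with BETp (the BET degrader ARV825, 40 nM), with mTORi (the mTOR kinase inhibitor AZD8055, 50 nM) or with vehicle (0.01% DMSO). The doses within the combination are not given in the labels. Each line and treatment had 1 library, so the lines stand as replicates of a treatment, p-values measure how far the lines and, where drugs are averaged or lines compared, the drug combinations depart from the fitted model, not the spread between replicate cultures, and nothing in the labels separates a drug effect within 1 line from a difference between single cultures.

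These genes encode the linker histone H1 and the core histones H2A, H2B, H3 and H4, which package newly copied DNA. They lie in clusters, mostly lack introns and are transcribed mainly in S phase, and their mRNAs usually end at a short stem-loop bound by SLBP (stem-loop binding protein) in place of a poly(A) tail. BET proteins read acetylated lysines on histone tails and promote transcription, and ARV825 links them to the cereblon ubiquitin ligase for degradation. mTOR is a kinase that couples growth to protein synthesis. In bulk samples, fewer cells of a kind (such as cells in S phase) and less RNA per cell cannot be told apart.

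The TPM totals of the libraries lay between 998559 and 999362. TPM keeps no read depth, so no counting error can be given for a low value. No 2 libraries held identical values, and genes of the mitochondrial genome took 5.99% to 19.2% of the TPM total, more in each treated library than in vehicle of the same line. The bile duct keratin KRT7 was at 2909 to 3746 TPM in SNU1079 and at 404 to 812 TPM in SSP25, whereas CDH1, the epithelial cadherin, was at or below 1.40 TPM in all 8 libraries. The 6 hepatocyte markers summed to at most 5.11 TPM in SNU1079 and 0.17 TPM in SSP25. COL1A1 reached 1003 TPM in SNU1079 while COL1A2, COL3A1 and DCN stayed at or below 1.07 TPM in both lines, LUM reached 24.9 TPM in SSP25, and CD14 was at 13.9 to 32.4 TPM in SSP25 while the pan-leukocyte gene PTPRC was at or below 0.24 TPM. The part of these other genes in the histone results was not tested.

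The stem-loop is the feature that sets these mRNAs apart, and 65 of 68 cluster histone genes that could be placed on GRCh37 (GENCODE 44 annotation) carried one within 150 bases after the stop codon. This included 35 of 36 placed members. The 16 bases of the stem-loop came in 7 distinct forms over the 65 genes, and the most common one stood in 40 of them. The stem-loops of 7 members that differ in level or response are shown with 5 bases on either side, and capitals mark the 16 bases.
HIST1H1C: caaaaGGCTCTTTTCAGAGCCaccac
HIST2H2AA4: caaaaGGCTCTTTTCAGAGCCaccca
HIST2H3A: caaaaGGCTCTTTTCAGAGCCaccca
HIST1H2BK: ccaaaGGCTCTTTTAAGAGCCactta
HIST2H4A: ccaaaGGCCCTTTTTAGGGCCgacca
HIST1H4H: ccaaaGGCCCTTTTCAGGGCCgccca
HIST1H2AK: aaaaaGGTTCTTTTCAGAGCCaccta
The sites are chr6:26055967-26055992 (minus strand), chr1:149823136-149823161 (plus strand), chr1:149824662-149824687 (plus strand), chr6:27114140-27114165 (minus strand), chr1:149804591-149804616 (plus strand), chr6:26285354-26285379 (minus strand) and chr6:27805658-27805683 (minus strand), each in or at the end of the annotated 3′ untranslated region. HIST1H1C, HIST2H2AA4 and HIST2H3A share the common form. The form shown for HIST1H2BK stood in 9 genes, that of HIST1H4H in 9, that of HIST2H4A in 4, and HIST1H2AK was the one gene with its form.

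Some cluster histone genes have annotated transcripts that run past the stem-loop. An annotated transcript end 100 bases or more beyond the stem-loop was found for 16 of 35 members, against 2 of 30 genes below the level rule. AATAAA, the letters of the common poly(A) signal, began within 30 bases after the stem-loop in 4 members, at base 13 in HIST1H1C and HIST1H2BD and at base 14 in HIST2H2AA3 and HIST2H2AA4, and in 0 of the 30 genes below the level rule. Whether the libraries were made from poly(A)-selected RNA is not given in the sources used here, so how completely stem-loop-ended mRNA was captured is unknown.

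Levels among the members spread widely, from means of 0.62 TPM (HIST1H4D) to 190.0 TPM (HIST1H2BK) over the 8 libraries. The 8 members of highest mean held 79.3% to 87.2% of the summed member TPM in every library. They were HIST1H2BK (H2B), HIST1H1C (the H1.2 linker histone), HIST2H2AA4, HIST1H2AC and HIST2H2AA3 (H2A), HIST2H4A (H4), HIST3H2A (H2A) and HIST1H2BD (H2B), with means of 190.0, 148, 136, 94.8, 57.4, 57.0, 52.3 and 50.6 TPM. At least 1 TPM was reached in all 8 libraries by 17 members.

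**Figure D1:**
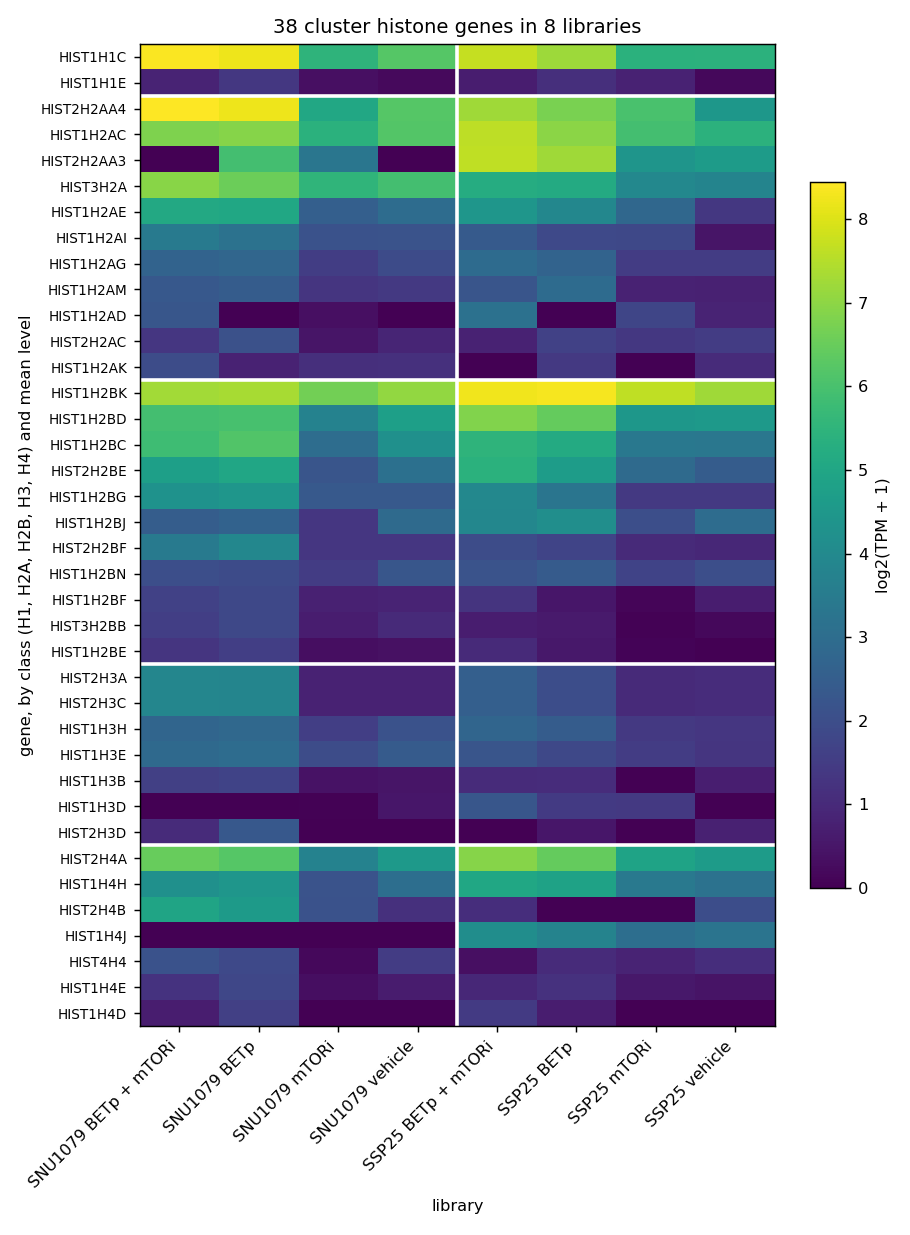
Level of each of the 38 members (rows, by class and falling mean) in each of the 8 libraries (columns), as log2(TPM + 1) in colour, with white lines between classes and between lines. The columns with BETp are brighter for most rows in both lines, HIST1H2BK is bright throughout, and HIST1H4J is at 0 in all SNU1079 libraries.

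Summed over the members, the cluster histone genes stood at 1495 TPM with BETp + mTORi and 1467 TPM with BETp in SNU1079, against 343 TPM with mTORi and 539.7 TPM in vehicle. In SSP25 the sums were 1572 TPM with BETp + mTORi and 1239.9 TPM with BETp, against 512 TPM with mTORi and 401 TPM in vehicle. Both libraries with BETp thus lay above both without it in each line, 3.36-fold in SNU1079 and 3.08-fold in SSP25 as ratios of the mean of both sums with BETp to the mean of both without, as for every fold of TPM here. The libraries without BETp lay in opposite orders in the lines, with mTORi under vehicle in SNU1079 and over it in SSP25. Sums are given as a description, with no test.

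The H1 sum was 335, 300.1, 44.01 and 72.8 TPM in SNU1079 (BETp + mTORi, BETp, mTORi, vehicle) and 208, 148, 41.6 and 42.3 TPM in SSP25. The H2A sum, the largest of the classes in SNU1079, was 642, 623, 140.2 and 221 TPM in SNU1079 and 621, 446, 173 and 108 TPM in SSP25. Both classes kept the BETp libraries apart from the rest in each line, by 5.44-fold and 4.24-fold for H1 and by 3.5-fold and 3.80-fold for H2A in SNU1079 and SSP25. For H2B the sums were 334, 373, 132 and 202 TPM in SNU1079 and 547, 499.7, 243 and 199 TPM in SSP25, and the ratio was lower, 2.11-fold and 2.37-fold. HIST1H2BK alone made up 43.0% to 81.4% of the H2B sum, with less of it in each BETp library than in the libraries without BETp of that line. Without HIST1H2BK the H2B ratios were 3.81-fold in SNU1079 and 4.40-fold in SSP25.

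The H3 sum was the smallest of the core histones at 42.6, 46.0, 6.71 and 10.0 TPM in SNU1079 and 23.8, 16.1, 7.18 and 6.52 TPM in SSP25, 5.30-fold and 2.92-fold higher with BETp. The H4 sum was 141, 125, 19.6 and 33.2 TPM in SNU1079 and 173, 131, 46.6 and 44.9 TPM in SSP25, 5.04-fold and 3.31-fold higher. Every class was therefore higher in both BETp libraries of each line than in both others. Among the clusters the ratio was 6.20-fold and 4.39-fold for HIST2 (10 members), 2.77-fold and 2.71-fold for HIST1 (25 members), and 2.08-fold and 2.64-fold for HIST3 (2 members). HIST4, a single gene for H4, had a ratio of 3.03 in SNU1079 and 0.691 in SSP25.

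**Figure D2:**
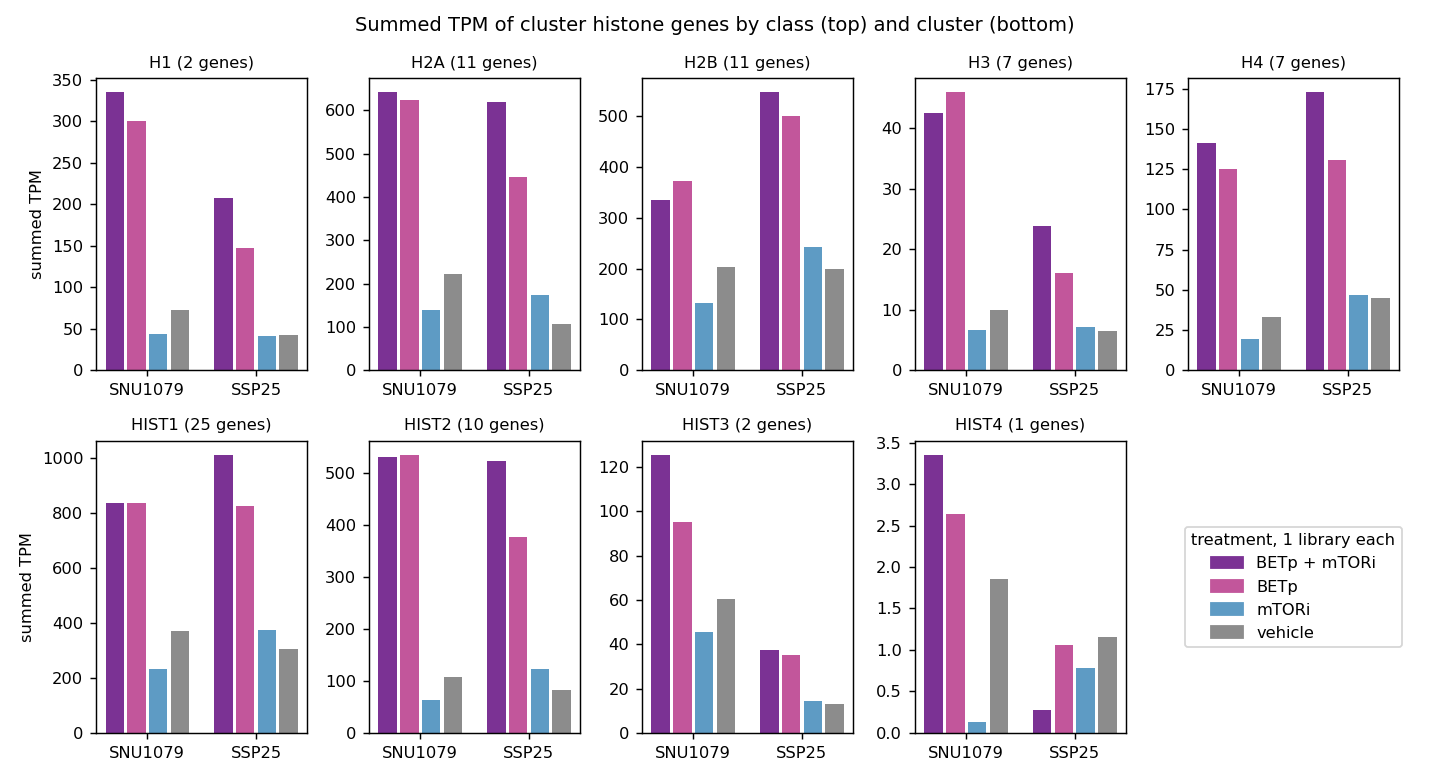
Summed TPM of the members of each class (top) and cluster (bottom) in each line, with 1 bar per library, no error bars and a vertical scale of its own in every panel. In all panels but HIST4 the BETp + mTORi and BETp bars stand above the mTORi and vehicle bars of the same line. For HIST4 the SSP25 bars run from 0.28 TPM to 1.16 TPM with vehicle highest.

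To ask what BETp did across both lines and with or without mTORi, log2(TPM + 1) was fitted with limma on line, BETp and mTORi, which averages each drug over the other. The averaged BETp effect passed at an adjusted p under 0.05 (Benjamini-Hochberg, over all 16060 genes) for 17 of 38 members, all higher, against 0.461% of all genes higher and 1.36% lower. The effect was above 0 for all 38 members, with a median of 1.10 on the log2(TPM + 1) scale against −0.08 over all genes. By class 1 of 2 H1, 6 of 11 H2A, 5 of 11 H2B, 3 of 7 H3 and 2 of 7 H4 members passed, and by cluster 10 of 25 in HIST1, 6 of 10 in HIST2, 1 of 2 in HIST3 and 0 of 1 in HIST4. HIST2H3A and HIST2H3C, which had the same value in every library, each count among these. With the near-identical pairs described below summed, a setting added after the data had been seen, 16 of 35 passed. Of 16 members with a mean of 5 TPM or more 11 passed (median effect 1.99), of 22 with a lower mean 6 passed (median 0.79), and the pseudocount of 1 understates the change of low genes.

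A total of 10 members came through the level rule with at most 1 library without BETp at 1 TPM, so that their place among the members rests mainly on the BETp libraries. None of these 10 passed, and of the 28 others, a group formed after the data had been seen, 17 passed with a median of 1.38. The count of 17 members was 0 with no line term and 2 with no level filter. It was 6 without the SNU1079 BETp + mTORi library, 8 without SNU1079 BETp, 10 without SNU1079 mTORi and 16 without SNU1079 vehicle. For SSP25 the count was 8 without BETp + mTORi, 11 without BETp, 9 without mTORi and 10 without vehicle.

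Among linker histones, HIST1H1C (a single exon at chr6:26055968-26056698 of GRCh37) was in SNU1079 at 334 TPM with BETp + mTORi and 299 TPM with BETp, against 43.8 TPM with mTORi and 72.7 TPM in vehicle. In SSP25 it was at 208 TPM with BETp + mTORi and 146 TPM with BETp, against 40.9 TPM with mTORi and 42.2 TPM in vehicle. All 4 BETp libraries lay above all 4 others, and the averaged effect of 2.25 ± 0.18 (adjusted p = 0.00635) passed (± SE throughout). HIST1H1E, the other H1 member, was at 0.78, 1.56, 0.26 and 0.15 TPM in SNU1079 and 0.58, 1.22, 0.74 and 0.13 TPM in SSP25 (BETp + mTORi, BETp, mTORi, vehicle, the order of every such quartet) and did not pass, with 0.62 ± 0.23 (adjusted p = 0.163).

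Among H2A genes, HIST1H2AE was in SNU1079 at 33.5 TPM with BETp + mTORi and 31.6 TPM with BETp, against 4.91 TPM with mTORi and 7.0 TPM in vehicle. In SSP25 it was at 20.7 TPM with BETp + mTORi and 13.9 TPM with BETp, against 6.12 TPM with mTORi and 1.61 TPM in vehicle. The 4 libraries with BETp were again the 4 highest, and its averaged effect was 2.17 ± 0.26 (adjusted p = 0.0155). HIST1H2AC, the H2A gene of highest level after HIST2H2AA4, was at 110.2, 118, 40.8 and 72.0 TPM in SNU1079 and 192, 124, 60.0 and 41.5 TPM in SSP25, with an effect of 1.33 ± 0.23 (adjusted p = 0.0403). The 4 BETp libraries were the 4 highest here too. HIST3H2A, at 123, 92.7, 44.95 and 59.3 TPM in SNU1079 and 36.9, 34.4, 14.3 and 12.9 TPM in SSP25, had 1.18 ± 0.13 (adjusted p = 0.00988). Its groups were apart within each line, while the lines differed so much in level that the SNU1079 libraries without BETp exceeded the SSP25 libraries with it. Of the remaining H2A genes, HIST1H2AM and HIST1H2AG passed at 1.42 and 1.16, and HIST1H2AI had 1.09 ± 0.22 (adjusted p = 0.0515). HIST1H2AK and HIST2H2AC gave 0.22 ± 0.37 and 0.41 ± 0.27, and HIST1H2AK was at 0 TPM in the SSP25 libraries with BETp + mTORi and with mTORi.

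Among H2B genes, HIST2H2BE (chr1:149856009-149858232) had the largest averaged effect of all members. It was in SNU1079 at 26.0 TPM with BETp + mTORi and 31.0 TPM with BETp, against 3.72 TPM with mTORi and 7.59 TPM in vehicle. In SSP25 it was at 41.2 TPM with BETp + mTORi and 24.4 TPM with BETp, against 6.5 TPM with mTORi and 4.48 TPM in vehicle. Every BETp library exceeded every other library, and the effect of 2.28 ± 0.24 (adjusted p = 0.00854) was nearly equal in the lines, 2.21 in SNU1079 and 2.35 in SSP25. HIST1H2BG, with 18.7, 20.6, 4.08 and 4.11 TPM in SNU1079 and 14.4, 8.65, 1.65 and 1.62 TPM in SSP25, had the smallest adjusted p, with 2.11 ± 0.15 (adjusted p = 0.00333). HIST1H2BC was at 55.2, 70.0, 7.19 and 18.0 TPM in SNU1079 and 44.1, 35.0, 9.43 and 9.28 TPM in SSP25, and HIST1H2BD at 59.1, 61.9, 12.3 and 26.5 TPM in SNU1079 and 115, 86.5, 21.2 and 22.6 TPM in SSP25. Both passed, with 2.15 ± 0.23 (adjusted p = 0.00854) and 1.91 ± 0.21 (adjusted p = 0.0107).

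HIST1H2BK, the member of highest mean, had the smallest effect of the 8 members of highest mean. It was in SNU1079 at 152 TPM with BETp + mTORi and 160.4 TPM with BETp, against 98.6 TPM with mTORi and 132 TPM in vehicle. In SSP25 it was at 309 TPM with BETp + mTORi and 320.1 TPM with BETp, against 198 TPM with mTORi and 149.6 TPM in vehicle. The groups were apart within each line by 1.35-fold and 1.81-fold, and the averaged effect of 0.66 ± 0.14 (adjusted p = 0.0569) missed the threshold. HIST1H2BJ with 0.99 ± 0.29 (adjusted p = 0.115) and HIST1H2BN with 0.26 ± 0.16 (adjusted p = 0.367) did not pass either. In SNU1079 the vehicle library was the highest of 4 for both, at 6.5 TPM and 3.80 TPM. HIST2H2BF passed with 1.61 ± 0.30 (adjusted p = 0.0446) and per-line effects of 2.36 in SNU1079 and 0.87 in SSP25.

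Among H3 genes, HIST2H3A and HIST2H3C, which encode one protein, had the same value in every library and are treated with the near-identical copies. HIST1H3H was at 5.80, 6.28, 1.96 and 3.34 TPM in SNU1079 and 5.68, 4.44, 1.62 and 1.55 TPM in SSP25, with the BETp libraries the 4 highest, and passed with 1.10 ± 0.16 (adjusted p = 0.0266). HIST1H3E had 0.68 ± 0.16 (adjusted p = 0.0687) and HIST1H3B 0.94 ± 0.19 (adjusted p = 0.0515). HIST1H3D was at 0 in 2 of the SNU1079 libraries, those with BETp, and at 0 in SSP25 vehicle, and had 0.43 ± 0.38 (adjusted p = 0.535).

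Among H4 genes, HIST2H4A was in SNU1079 at 88.4 TPM with BETp + mTORi and 74.0 TPM with BETp, against 12.4 TPM with mTORi and 22.3 TPM in vehicle. In SSP25 it was at 120.1 TPM with BETp + mTORi and 86.8 TPM with BETp, against 28.5 TPM with mTORi and 23.9 TPM in vehicle. The 4 BETp libraries were well clear of the others, and the effect was 2.07 ± 0.19 (adjusted p = 0.00837). HIST1H4H, with 17.9, 20.4, 3.48 and 7.23 TPM in SNU1079 and 31.8, 28.3, 9.61 and 8.10 TPM in SSP25, likewise passed with 1.69 ± 0.17 (adjusted p = 0.00854). HIST1H4J was at 0 in all 4 SNU1079 libraries and at 16.8, 12.6, 7.21 and 8.49 TPM in SSP25, with an effect of 0.41 ± 0.20 (adjusted p = 0.264). All 7 H4 members encode the same protein of 103 residues, as do 6 H4 genes below the level rule, and their averaged effects lay between 0.41 and 2.07. The lowest, that of HIST1H4J, averages in SNU1079, where the gene was at 0. In SSP25 both of its BETp libraries lay above both others.

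**Figure D3:**
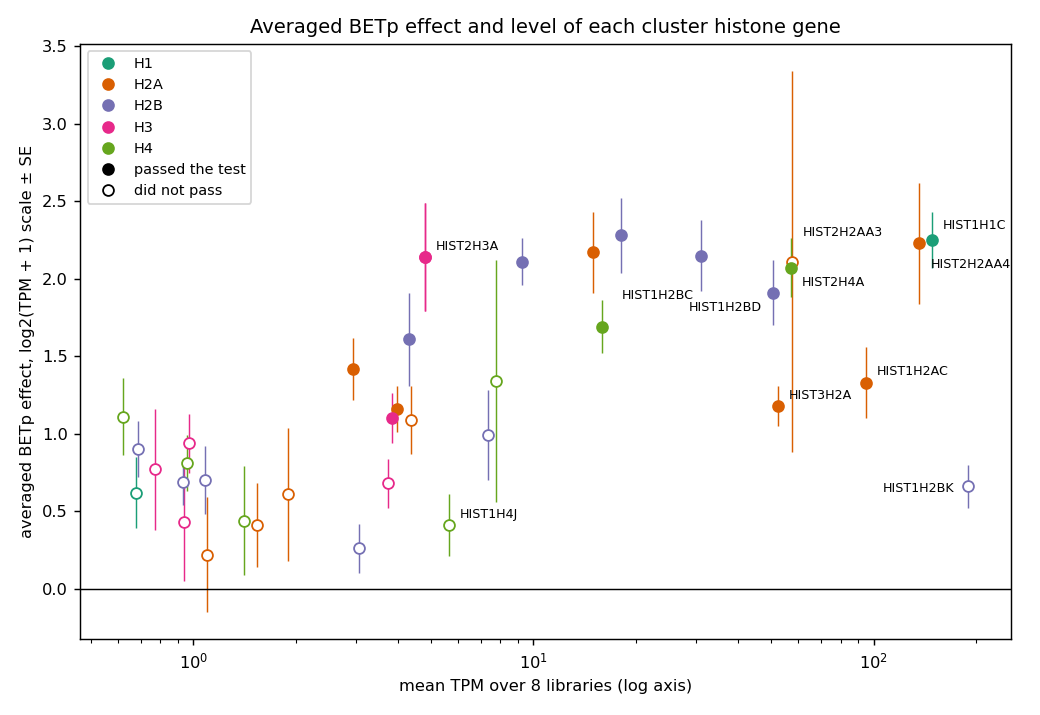
Averaged BETp effect ± SE on the log2(TPM + 1) scale (vertical axis) against mean TPM over 8 libraries (log axis) for the 38 members, coloured by class, with filled points for genes that passed. All points lie above 0, HIST1H2BK stands at 190.0 TPM with an effect of 0.66, and the wide bar of HIST2H2AA3 is an SE of 1.23.

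Without any model, both BETp libraries of SNU1079 lay above both of its other libraries for 31 of 38 members (81.6%, against 14.2% of all genes). In SSP25 this held for 30 members (78.9%, against 12.8%), in both lines for 25 (65.8%, against 4.27%), and all 4 BETp libraries lay above all 4 others for 20 (52.6%, against 0.909%). A member could pass the level rule through its BETp libraries alone, and among the 28 members with 2 or more libraries at 1 TPM among those without BETp the counts were 23 in SNU1079, 24 in SSP25, 20 in both lines and 16 for all 8 libraries. The BETp effect within a line was above 0 for 36 members in SNU1079 (38.2% of all genes) and 34 in SSP25 (36.1% of all genes), and 5 members had opposite signs in the lines.

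**Figure D4:**
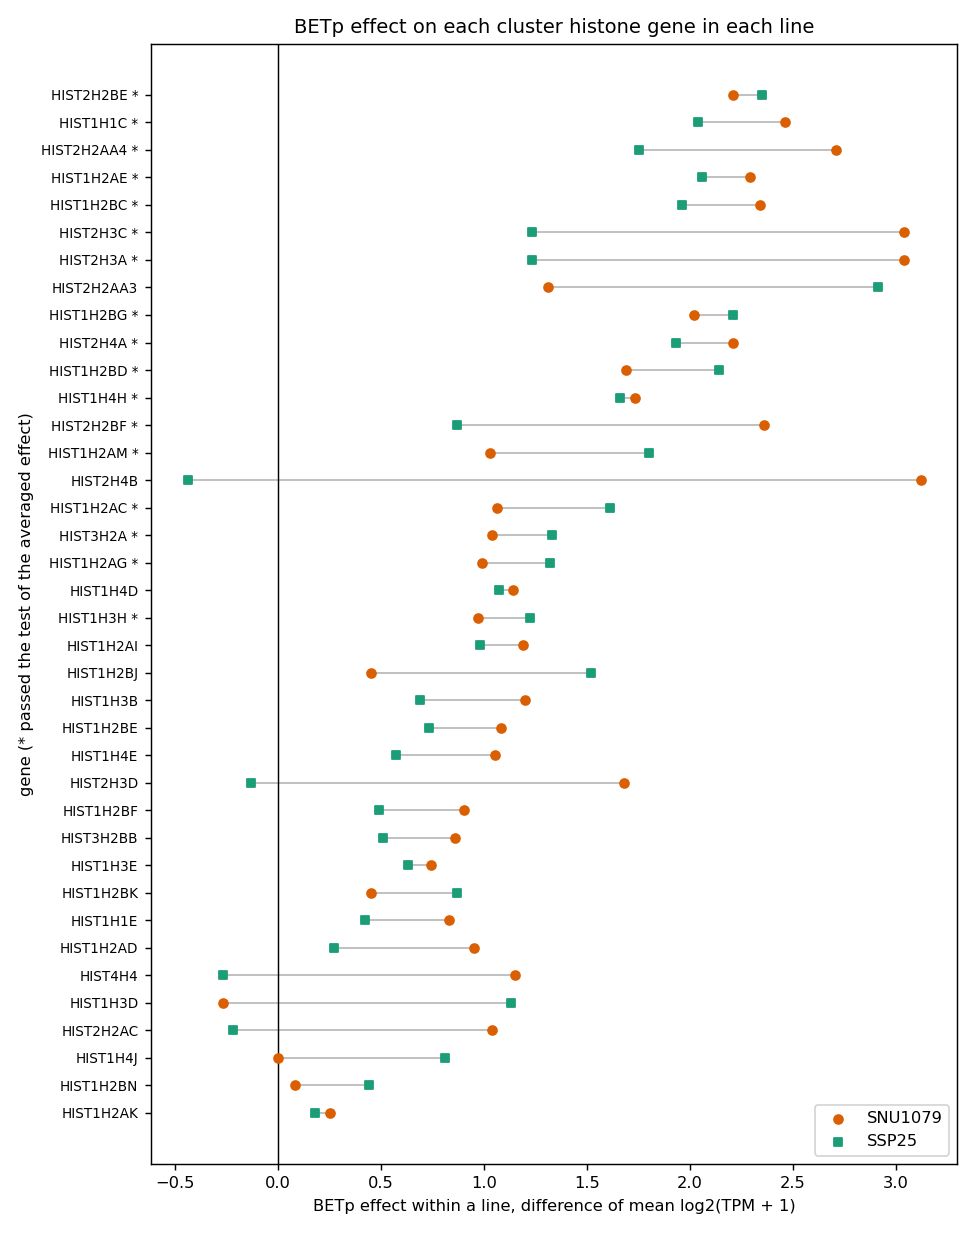
BETp effect within each line for each member, the difference in mean log2(TPM + 1) between the libraries with and without BETp, ordered by the averaged effect (asterisks mark members that passed). The lines lie close for HIST2H2BE (2.21 and 2.35) and HIST1H4H (1.73 and 1.66) and far apart for HIST2H4B (3.12 and −0.44) and HIST2H3A (3.04 and 1.23).

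Members whose transcripts reach 100 bases or more past the stem-loop passed in 9 of 16 cases (median effect 1.34), and members with all annotated ends near the stem-loop in 7 of 19 (median 0.94). Both groups were chosen by annotation and no difference between them was tested. HIST2H2BE, HIST1H2BD and HIST2H2AA3 belong to the first set, and HIST1H1C, HIST2H2AA4 and HIST1H2AE to the second. HIST2H2AA3 and HIST2H2AA4 have the same coding sequence, so the sets are not fully separate in their reads.

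The members include 3 near-identical pairs that lie in a duplicated stretch of chromosome 1 and have 0 differing bases in their coding sequences, HIST2H2AA3 and HIST2H2AA4 over 390 bases, HIST2H3A and HIST2H3C over 408 and HIST2H4A and HIST2H4B over 309. Reads from such copies can be assigned to either, so the single rows are uncertain and the sums of each pair, formed after the data had been seen, are given beside them. HIST2H2AA3 was listed at 0, 59.7, 8.87 and 0 TPM in SNU1079 and 198, 149, 20.2 and 23.8 TPM in SSP25, and HIST2H2AA4 at 347, 298, 32.1 and 73.0 TPM in SNU1079 and 150.2, 106, 63.4 and 21.2 TPM in SSP25. The split between the copies changed from library to library, with HIST2H2AA3 at 0 in SNU1079 with BETp + mTORi and in vehicle and above HIST2H2AA4 in SSP25 with BETp + mTORi, with BETp and in vehicle. Their sum was 347, 358, 40.9 and 73.0 TPM in SNU1079 and 348, 255, 83.7 and 44.9 TPM in SSP25. The averaged effect of the sum was 2.46 ± 0.24 (adjusted p = 0.00808), while HIST2H2AA3 alone had 2.11 ± 1.23 (adjusted p = 0.337) and HIST2H2AA4 alone 2.23 ± 0.39 (adjusted p = 0.0403).

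HIST2H3A and HIST2H3C were both listed at 13.7, 13.3, 0.75 and 0.77 TPM in SNU1079 and 4.82, 2.98, 1.02 and 1.08 TPM in SSP25. Their sum gave 2.47 ± 0.38 (adjusted p = 0.0319). HIST2H4B was listed at 29.8, 23.4, 3.39 and 1.26 TPM in SNU1079 and 1.17, 0, 0 and 2.98 TPM in SSP25, a larger share of the pair in the treated SNU1079 libraries than in the treated SSP25 libraries. HIST2H4A and HIST2H4B together stood at 118, 97.3, 15.8 and 23.6 TPM in SNU1079 and 121, 86.8, 28.5 and 26.8 TPM in SSP25, with an effect of 2.13 ± 0.18 (adjusted p = 0.00548), against 1.34 ± 0.78 (adjusted p = 0.337) for HIST2H4B alone. For all 3 pairs the sum passed.

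BETp + mTORi against vehicle, in a model of line and treatment, was higher for 10 of 38 members and lower for 0 (0.293% of all genes were higher and 1.52% lower). The median change was 1.15 against −0.19 over all genes, and 34 members were above 0. The 4 below 0, none of which passed, were HIST1H2AK (−0.11), HIST1H2BN (−0.05), HIST2H2AC (−0.12) and HIST4H4 (−0.07). By class 1 of 2 H1, 3 of 11 H2A, 4 of 11 H2B, 0 of 7 H3 and 2 of 7 H4 members passed. With adjusted p in parentheses, HIST1H2BC rose by 1.85 ± 0.30 (0.0438), HIST1H2BD by 1.71 ± 0.26 (0.0401), HIST1H4H by 1.53 ± 0.25 (0.0438) and HIST3H2A by 1.25 ± 0.17 (0.0374). Of the 10, 9 also passed in the averaged BETp effect, and 9 are among the 28 members with 2 or more libraries at 1 TPM among those without BETp. The count of 10 was 0 without any one of the SNU1079 BETp + mTORi, SNU1079 vehicle, SSP25 BETp + mTORi and SSP25 vehicle libraries, 1 without either BETp library, 0 with no line term and 0 with no level filter.

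The tenth member was HIST1H2AD, one of the 10 low genes, at 3.75, 0, 0.27 and 0 TPM in SNU1079 and 7.94, 0, 2.40 and 0.81 TPM in SSP25. The combination libraries were the highest in each line while both libraries with BETp alone were listed at 0. Its change against vehicle was 2.28 ± 0.34 (adjusted p = 0.0393). It also had the smallest p among members for a departure from additivity, 2.08 ± 0.47, which did not pass (adjusted p = 1), and the largest averaged mTORi effect, 1.67 ± 0.43 (adjusted p = 0.0855).

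The averaged mTORi effect passed for 0 members under limma (0.162% of all genes were higher and 0.884% lower), with 2 higher and 1 lower at an unadjusted p under 0.05. The median was −0.03, against −0.11 over all genes. HIST1H2BJ had −0.75 ± 0.29 (adjusted p = 0.189) and HIST1H2AI 0.54 ± 0.22 (0.195). The departure from additivity passed for 0 members and 0.0% of all genes, with 2 members higher and 1 lower at an unadjusted p under 0.05 and a median of 0.31. Neither median held its sign, and without the SNU1079 mTORi library they were 0.01 for mTORi and −0.02 for additivity.

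Within the lines the mTORi effect was below 0 for 30 members in SNU1079 (78.9%, against 68.9% of all genes) and above 0 for 27 in SSP25 (71.1%, against 32.8%), and 21 members did both (55.3%, against 20.0%). Lower values with mTORi in both pairs of libraries, with and without BETp, were found for 18 members in SNU1079 (49.7% of all genes) and 7 in SSP25 (46.2% of all genes). The difference between lines in the mTORi effect passed for 0 members and 0.0% of all genes, with 1 member higher and 8 lower in SNU1079 at an unadjusted p under 0.05, and a median of −0.41 against −0.03 over all genes. For HIST2H2BE the difference was −1.15 ± 0.26 (−0.55 in SNU1079 and 0.59 in SSP25, adjusted p = 0.244). The difference between lines in the BETp effect also passed for 0 members (0.00623% of all genes were higher in SNU1079), with 7 higher and 2 lower at an unadjusted p under 0.05. HIST2H3A and HIST2H3C, at 1.81 ± 0.27 (adjusted p = 0.184), had the smallest p.

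In level, SNU1079 minus SSP25 over all treatments, 11 members were higher and 6 lower (39.1% and 36.6% of all genes). HIST3H2A was 1.70 ± 0.13 higher in SNU1079 on the log2(TPM + 1) scale (adjusted p = 7.49e-06), with its lowest SNU1079 library, 44.95 TPM, above its highest SSP25 library, 36.9 TPM. HIST1H4J was −3.55 ± 0.20 (adjusted p = 1.22e-06) and is listed at 0 in SNU1079. HIST1H2BK (−0.80 ± 0.14), HIST1H2BJ (−0.92) and HIST1H4H (−0.66) were also lower in SNU1079, and HIST1H1C (0.64), HIST1H2AE (0.79), HIST1H2BG (0.86) and HIST1H3E (0.84) higher. HIST2H2AA3 (−3.67) and HIST2H4B (2.44) passed as single rows, whereas the sums of HIST2H2AA3 with HIST2H2AA4 and of HIST2H4A with HIST2H4B gave 0.04 ± 0.24 and −0.22 ± 0.18 and did not pass (adjusted p = 0.889 and 0.299). Within H2B and H3, members passed in both directions.

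Many cluster histone genes stand head to head. Among the 68 genes placed with GENCODE 44, 11 pairs on opposite strands had facing ends of the annotated genes at most 500 bases apart. HIST1H3J and HIST1H2BO count only through the far end of the annotated HIST1H3J gene (chr6:27858093-27860884). The coding mRNA of HIST1H3J is 512 bases long and ends at the stem-loop, so it does not start near HIST1H2BO. HIST1H2BF, HIST1H2BG and HIST1H4F were not placed, so any pair with one of them is missing here. The RefSeq promoter stretch of HIST1H2AE, for example, holds the start of a divergent neighbour, and HIST1H2AE is in none of the 11 pairs. The genes of a pair could differ widely in level. HIST1H2BK had a mean of 190.0 TPM and HIST1H2AH, 251 bases away, 0.10 TPM. HIST3H2A had 52.3 TPM and HIST3H2BB, 230 bases away, 0.93 TPM. HIST1H2BC and HIST1H2AC (219 bases) were both high at 31.0 and 94.8 TPM, and HIST1H2BJ and HIST1H2AG (248 bases) were at 7.34 and 3.97 TPM.

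**Figure D5:**
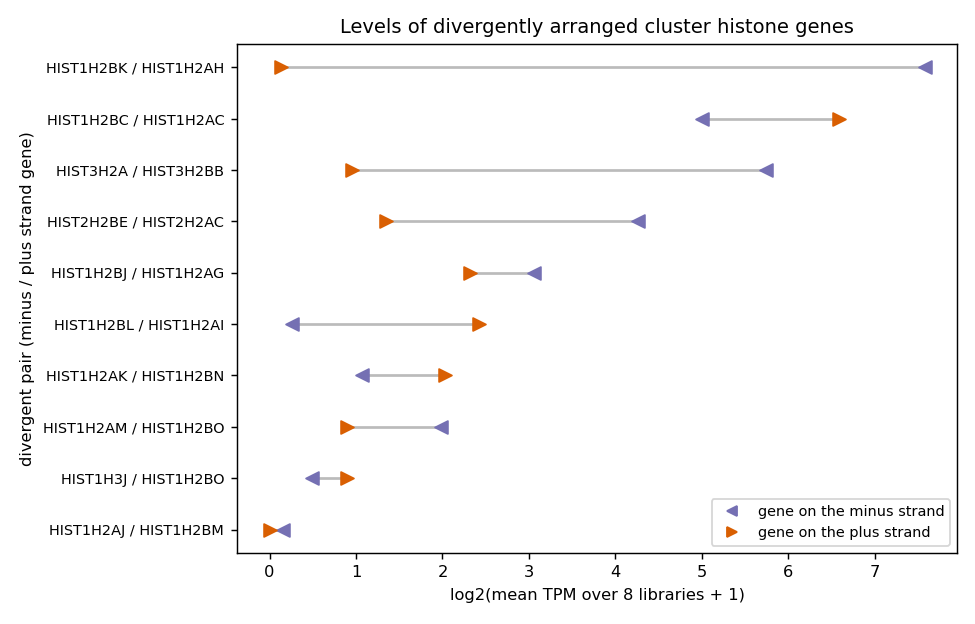
Levels of the 2 genes of 10 divergent pairs as log2(mean TPM over 8 libraries + 1), with a left-pointing marker for the gene on the minus strand and a right-pointing one for the gene on the plus strand. The markers are farthest apart for HIST1H2BK and HIST1H2AH (190.0 and 0.10 TPM) and closest for pairs near 0. The pair HIST1H2AA and HIST1H2BA, at 0 in all libraries, is not drawn. Pairs with a gene that could not be placed are not included. HIST1H3J and HIST1H2BO are drawn as a pair by the ends of the annotated genes, though the coding mRNA of HIST1H3J starts farther away.

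Promoters were read from RefSeq on GRCh38.p14 (up to 250 bases before the start of the gene, 36 of 38 members matched) to show the stretches in front of members at both ends of the effect range. A stretch that also holds the start of a divergent neighbour was trimmed there. Capitals mark matches, on either strand, to the TATA box letters TATAAA, to the CCAAT box, to the octamer ATTTGCAT and to AAACACA, a motif of H1 promoters. No 2 of these matches overlap in the stretches shown. The first 4 belong to the members HIST2H2BE, HIST1H1C, HIST2H2AA4 and HIST1H2AE with averaged effects of 2.28, 2.25, 2.23 and 2.17, and the last 2 to HIST1H2BN (0.26) and HIST1H4J (0.41). The value of HIST1H4J averages in SNU1079, where the gene was at 0 in every library.
HIST2H2BE: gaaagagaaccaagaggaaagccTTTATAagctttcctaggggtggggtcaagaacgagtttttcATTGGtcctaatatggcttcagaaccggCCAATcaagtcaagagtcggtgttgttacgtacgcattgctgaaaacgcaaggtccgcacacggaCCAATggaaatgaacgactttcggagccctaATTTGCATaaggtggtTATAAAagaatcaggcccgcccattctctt
HIST1H1C: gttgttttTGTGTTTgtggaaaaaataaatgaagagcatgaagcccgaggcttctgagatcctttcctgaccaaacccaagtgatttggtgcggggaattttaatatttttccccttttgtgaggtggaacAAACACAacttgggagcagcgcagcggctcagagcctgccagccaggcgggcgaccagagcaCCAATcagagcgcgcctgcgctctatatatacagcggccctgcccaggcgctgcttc
HIST2H2AA4: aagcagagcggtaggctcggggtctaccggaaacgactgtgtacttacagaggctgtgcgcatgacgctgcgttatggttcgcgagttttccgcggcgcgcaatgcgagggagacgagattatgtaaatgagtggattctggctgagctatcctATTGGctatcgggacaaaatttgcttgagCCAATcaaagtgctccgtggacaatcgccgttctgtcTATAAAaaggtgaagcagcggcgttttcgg
HIST1H2AE: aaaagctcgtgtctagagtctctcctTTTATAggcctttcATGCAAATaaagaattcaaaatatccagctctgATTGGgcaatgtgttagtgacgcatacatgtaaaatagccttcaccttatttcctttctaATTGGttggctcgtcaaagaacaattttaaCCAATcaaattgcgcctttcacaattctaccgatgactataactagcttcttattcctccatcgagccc
HIST1H2BN: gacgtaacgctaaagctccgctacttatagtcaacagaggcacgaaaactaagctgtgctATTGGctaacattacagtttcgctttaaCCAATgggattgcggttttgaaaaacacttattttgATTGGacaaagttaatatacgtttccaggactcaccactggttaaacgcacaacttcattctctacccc
HIST1H4J: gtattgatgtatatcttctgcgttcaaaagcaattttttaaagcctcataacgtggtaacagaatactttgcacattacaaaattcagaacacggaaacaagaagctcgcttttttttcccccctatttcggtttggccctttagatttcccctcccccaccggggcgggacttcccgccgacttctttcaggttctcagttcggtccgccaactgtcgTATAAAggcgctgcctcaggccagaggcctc
Their positions are chr1:149886683-149886917 (minus strand), chr6:26056471-26056720 (minus strand), chr1:149850811-149851060 (plus strand), chr6:26216689-26216920 (plus strand), chr6:27838376-27838568 (plus strand) and chr6:27823842-27824091 (plus strand). The stretch of HIST2H2BE is, read on the other strand, that of HIST2H2AC, and that of HIST1H2BN is that of HIST1H2AK.

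HIST2H2BE and HIST2H2AC thus share 1 promoter stretch with 2 TATAAA matches, 3 CCAAT matches and an octamer, and their averaged BETp effects were 2.28 ± 0.24 and 0.41 ± 0.27, at mean levels of 18.1 and 1.54 TPM. The lines differed for HIST2H2AC, at 1.51, 3.27, 0.38 and 0.84 TPM in SNU1079 and 0.77, 2.07, 1.61 and 1.84 TPM in SSP25. Both of its BETp libraries lay above both others in SNU1079 only, so its average does not show a weak response in each line. HIST1H2BN and HIST1H2AK share a stretch with 3 CCAAT and 0 TATAAA matches and had 0.26 ± 0.16 and 0.22 ± 0.37. Motif shares were counted on the full 250 bases without trimming, so bases shared by divergent neighbours count for each gene. Over the members, TATAAA was found in 66.7%, CCAAT in 80.6%, the octamer in 36.1% and AAACACA in 5.56% of promoters. The shares were 67.9%, 89.3%, 39.3% and 14.3% in cluster histone genes below the level rule and 10.7%, 32%, 1.63% and 4.82% over all 35116 promoters of the same length. CCAAT was in every matched promoter of the H1, H2A, H2B and H3 members and in 0 of the 7 H4 members, and AAACACA in both H1 members and no other member. A match says only that these letters are present, and 2 members, HIST1H2AD and HIST1H3D, have the same RefSeq stretch.

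The level rule cut through a group of low genes. Just inside it were HIST2H3D, at 1.07, 3.97, 0 and 0 TPM in SNU1079 and 0, 0.43, 0 and 0.72 TPM in SSP25, and HIST1H1E, whose second highest library was at 1.22 TPM. Just outside were HIST1H4I, at 0.92, 1.22, 0 and 0.44 TPM in SNU1079 and 0.97, 0.72, 0.15 and 0.63 TPM in SSP25, and HIST1H2BH, at 0, 0.04, 0 and 0.04 TPM in SNU1079 and 0.94, 1.28, 0.64 and 0.50 TPM in SSP25. The 33 genes below the rule reached at most 3.33 TPM (HIST1H2BO), 6 of them were at 0 in all 8 libraries, and they summed to 3.31, 6.78, 2.09 and 3.91 TPM in SNU1079 and 5.88, 14.5, 5.61 and 9.05 TPM in SSP25. The rule passed 2 of 6 H1, 11 of 17 H2A, 11 of 18 H2B, 7 of 15 H3 and 7 of 15 H4 genes, and 25 of 55 in HIST1, 10 of 12 in HIST2, 2 of 3 in HIST3 and the only gene of HIST4.

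Histone genes outside the clusters, most of which make mRNAs with poly(A) tails and are not confined to S phase, gave other values. Of 11 such genes tested (H3F3A and H3F3B, which encode the H3.3 variant, H2AFZ, H2AFX, H1F0 and others) 0 passed in the averaged BETp effect under limma, with 3 higher and 3 lower at an unadjusted p under 0.05 and a median of −0.07. H3F3B and H3F3A, the most abundant of the list, had 0.15 ± 0.07 and 0.12 ± 0.07. The linker histones H1F0, with 0.59 ± 0.23 (adjusted p = 0.183), and H1FX, with 0.47 ± 0.10 (adjusted p = 0.0625), had the largest positive values. H2AFY, which encodes macroH2A1, fell by 0.53 ± 0.10 (adjusted p = 0.0492) with BETp + mTORi, the one call of this list there. The list summed to 2292, 2266, 2356 and 2029 TPM in SNU1079 and 1804, 2203, 1792 and 2145 TPM in SSP25, more than the cluster genes in every library.

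Genes for the proteins that transcribe and process histone mRNA did not pass either. Of 23 tested, among them NPAT, SLBP, LSM10, LSM11 and ERI1, 0 passed for BETp, with 0 higher and 5 lower at an unadjusted p under 0.05 and a median of −0.07. SLBP was at 59.5, 62.1, 77.4 and 62.7 TPM in SNU1079 and 31.6, 35.3, 35.5 and 50.0 TPM in SSP25, with −0.26 ± 0.12 (adjusted p = 0.237). Both BETp libraries were below both others in each line, by small margins. Of 45 genes of S phase and DNA replication, 0 passed, with 0 higher and 22 lower at an unadjusted p under 0.05, and all 45 had a BETp effect at or below 0 with a median of −0.38. PCNA, the sliding clamp, and MCM7, a helicase subunit, had −0.30 ± 0.13 and −0.45 ± 0.17. The sum of the list was 1587, 1771, 2361 and 1732 TPM in SNU1079 and 961, 1369, 1344 and 1792 TPM in SSP25, highest with mTORi in SNU1079 and in vehicle in SSP25. The mTORi effect passed for 0 genes of these 3 lists, with 0, 0 and 0 higher and 2, 6 and 1 lower at an unadjusted p under 0.05.

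RNAs made without a poly(A) tail were listed to see how such transcripts read out in these libraries. Of 21, 8 were at 0 in all libraries and 9 met the level rule, and none of the 9 passed for BETp under limma (1 higher and 0 lower at an unadjusted p under 0.05, median 0.23). All 9 nevertheless had a BETp effect above 0, from 0.01 to 3.86, against a median of −0.08 over all genes. The 21 summed to 336, 403, 285 and 319 TPM in SNU1079 and 236, 498, 209.98 and 285 TPM in SSP25. In SNU1079 both BETp libraries were above both others, as for the cluster histones, and in SSP25 only the library with BETp alone was. The part of RNA without a poly(A) tail in the histone values was not tested.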

How the data were processed

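Each of the 2 lines has 1 table of TPM values per gene, deposited by the authors and made from strand-specific dUTP libraries (NEBNext Ultra Directional kit, total RNA input). The submitters' processing notes name the build GRCh37 and the tools DESeq2 and edgeR. Not given in the sources used here are the aligner, the gene annotation, the strand setting of the counting and any poly(A) selection. Columns were assigned to treatments from the sample titles, and all value columns were used. TPM keeps no depth, so the precision of a low value is unknown.

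Values were taken as log2(TPM + 1), and the 16060 genes that reached 1 TPM in 2 or more of 8 libraries were kept. Models were fitted on all of them in R 4.3.3 with limma 3.58.1 (eBayes with an intensity trend), two-sided and adjusted by Benjamini-Hochberg over all genes, with calls at an adjusted p under 0.05. The averaged effects came from a model of line, BETp and mTORi (4 residual degrees of freedom), the combination and additivity from line and treatment (3), and line differences from line-by-drug terms (2). The line is the pairing between libraries and was a term of each model. The scripts were tested on simulated data.

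Members and lists were chosen with earlier results of these data known. Named members were, by a fixed rule, the 3 of highest mean in each class, the called members of each comparison up to 8 by size of change, or the 3 of smallest p where none was called, those nearest the level rule, and genes that encode an identical protein. H1F0, H1FX, SLBP, H2AFY, members of divergent pairs and other named genes outside the rule were chosen after their values were seen. Positions and stem-loops are from GENCODE 44 (68 of 71 genes matched) and promoters from RefSeq (GRCh38.p14, 64 matched), read with Biopython 1.88 in Python 3.11.15. The results were recomputed with a pseudocount of 0.1, with either no level filter or one of 5 TPM, after quantile normalization, with robust eBayes and no trend, after rescaling without mitochondrial transcripts, with no line term and with each library left out in turn. Chosen after seeing the data were 2 more, in which near-identical copies were summed or only the 28 members with 2 or more libraries at 1 TPM among those without BETp were kept.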

Additional observations from a re-analysis of the deposited data

Results flagged for a closer look

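Pseudogene rows of the histone clusters were outside the members. The level rule was met by 4 of them, and 3 of these had both BETp libraries above vehicle in 1 line. HIST2H2BD was listed at 30.75, 26.1, 5.52 and 6.73 TPM in the SNU1079 libraries (BETp + mTORi, BETp, mTORi, vehicle), and in SSP25 at 12.7, 3.49, 4.91 and 5.32 TPM. HIST2H2BC was listed at 13.35, 11.4, 3.36 and 3.67 TPM in SNU1079, and in SSP25 at 0, 6.34, 2.03 and 0 TPM. HIST1H1PS1 was listed at 0.77, 0.63, 0.45 and 1.07 TPM in SNU1079, and in SSP25 at 3.13, 0.71, 1.07 and 0.39 TPM. The other one, HIST2H2BB, was at 0 in every SNU1079 library and was listed in SSP25 at 2.93, 0, 2.97 and 0.60 TPM. Pseudogenes can share reads with the genes they copy, and how such reads were assigned is not known.

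Several sums moved opposite ways in the lines in both pairs of libraries, as log2 ratios of the TPM summed over both libraries with the drug to that over both without, and these differences between lines were not tested. The mTORi effect was −0.30 in SNU1079 and 0.18 in SSP25 for H2B, −0.18 and 0.45 for H3, and −0.11 and 0.50 for HIST2. The BETp effect on HIST4, which is HIST4H4 alone, was 1.60 in SNU1079 and −0.53 in SSP25, at levels of 3.35, 2.64, 0.13 and 1.85 TPM in SNU1079, and in SSP25 at 0.28, 1.06, 0.78 and 1.16 TPM.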

How the results depend on the processing

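No count of calls reversed its direction under the alternatives run, and neither did a member picked by the fixed rule for BETp, mTORi or the combination. Directions of other members, and of members picked for other comparisons, were not compared singly, and some changed. The BETp effect, above 0 for all 38 members, was above 0 for 37 without SNU1079 BETp + mTORi and 37 without SSP25 BETp. For the combination 34 members were above 0, and 37 with quantile normalization. Histone sums were compared for BETp only and with no library left out, and they kept their direction. Some medians over the members changed sign. The mTORi median of −0.03 was 0.05 with quantile normalization, 0.02 with a filter at 5 TPM, 0.01 without SNU1079 mTORi and 0.0016 without SNU1079 BETp. The median departure from additivity, 0.31, was −0.02 without SNU1079 mTORi. The median line difference in the BETp effect, 0.22, was −0.04 without SNU1079 BETp + mTORi and without SNU1079 mTORi. The 17 members called for the averaged BETp effect were 2 with no filter and 6 to 16 with 1 library left out. The 10 members called for BETp + mTORi against vehicle were 3 with a pseudocount of 0.1, 3 with quantile normalization, 0 with no filter, 0 with robust eBayes, and 0 to 11 with 1 library left out. The 17 members called for level between the lines were 11 with no filter and 12 to 20 with 1 library left out. For mTORi, additivity and both line differences, 0 members were called under each alternative run, which says little with so few libraries. Without the line as a block, 0 members were called for BETp and 0 for the combination. The mean log2 ratio of the HIST1 sum was 1.45, and 1.5 with mitochondrial transcripts left out.

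For single named members, leaving out a library gave the same call in 96 cases for BETp, a lost call in 39 and a gained one in 1, and for the combination 16 kept and 48 lost calls. The other alternatives gave 87, 30 and 1 for BETp and 19 kept and 36 lost for the combination. Of mTORi results, 24 and 20 stayed uncalled. With 1 library per line and treatment and no read depth, neither the variation between cultures nor the counting error of low genes can be given.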

Other observations

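Histone chaperones, which carry histones to and from DNA, gave 0 calls of 22 for BETp under limma (1 higher and 5 lower at an unadjusted p under 0.05), with a median of −0.23 against −0.08 over all genes. NAP1L1 and RBBP7, the most abundant of them, had −0.12 ± 0.09 and −0.28 ± 0.11 on the log2(TPM + 1) scale. Of 6 BET and elongation genes tested, BRD2, which encodes a BET protein, was the only one to pass. It was at 166, 179.96, 134 and 130.4 TPM in SNU1079 (BETp + mTORi, BETp, mTORi, vehicle) and at 177, 164, 111 and 122 TPM in SSP25, with an averaged BETp effect of 0.47 ± 0.07 (adjusted p = 0.0301). BRD3 had 0.15 ± 0.17, HEXIM1 had 0.05 ± 0.09, and BRDT was listed at 0 in all 8 libraries. These are mRNA levels and do not show whether the BET proteins were degraded.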
